A study of Homo sapiens with 6 samples.

Results

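The genes described here are 31 of 1161 human genes in the deposited table, taken by the start of their symbol: NDUF for complex I, SDHA to SDHD for complex II, UQCR for complex III, COX followed by a digit for complex IV, ATP5 for ATP synthase, MRPL or MRPS for the mitochondrial ribosome, TIMM or TOMM for the protein import families and SLC25A for the carriers of the inner membrane. They were 8 genes of complex I, 1 of complex II, 1 of complex III, 3 of complex IV, 7 of ATP synthase, 5 of the mitochondrial ribosome, 4 named TIMM or TOMM and 2 carriers, and they lay on 17 chromosomes. Of these, 30 were protein-coding and *ATP5PBP1* was a processed pseudogene of *ATP5PB*. Not every name stood for a part of the mitochondrial machinery it starts with: *TOMM34* encodes a cytosolic partner of the chaperones HSP70 and HSP90, and *TIMMDC1* encodes an assembly factor of complex I.

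The study followed MDA-MB-231, a triple negative human breast cancer cell line that grows as an adenocarcinoma xenograft. The cells carried green fluorescent protein (GFP), were stained with CellVue Claret (CV), a membrane dye diluted at each division, and reached the brain of 6 to 8 week old female C.B-17 SCID mice, which lack functional B and T cells, through the internal carotid artery. After 28 days, cells that had kept the dye (GFP+CV+, dormant) and cells that had lost it (GFP+CV-, proliferating) were sorted from the same brains, so both populations shared the line, the GFP tag, the staining and the host. Each population had 3 RNA libraries, 1 from each of 3 experiments, and the brains of 10, 10 and 9 mice were pooled for replicates 1, 2 and 3.

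Mitochondria make ATP by passing electrons from NADH and succinate along complexes I to IV, while protons pumped across the inner membrane return through ATP synthase. Most subunits are encoded in the nucleus, translated in the cytosol and imported through the TOM and TIM complexes, and a few are encoded in mitochondrial DNA and made by the mitochondrial ribosome. Carriers of the SLC25 family move ATP, ADP, phosphate and other solutes across the inner membrane. Cancer cells such as MDA-MB-231 are known for high aerobic glycolysis, yet they keep a working respiratory chain.

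The table held only genes that the authors had called different, so the presence of a gene in it, and its call here, is no support for a difference. Sums of listed counts, which are not library depth, ranged from 7978664 to 17928777, and 8 to 25 listed genes were at 0 in a proliferating library against 117 to 132 in a dormant one. The paper reports that GFP+CV+ cells were a small share of the isolated GFP+ cells. Cell number thus went with population, and its part in these zeros and in the differences below was not tested. Of 12 genes known for this mesenchymal-like line, 6 were listed and counted in every library. Of these, 5 were lower in dormant cells, *KRT18* (log2 fold change -0.51), *LGALS1* (-0.62), *KRT8* (-0.75), *CAV1* (-0.77) and *S100A4* (-0.95), and *SPARC* was higher (2.13), with summed normalized read counts of 430784 to 487818 in proliferating and 248003 to 311814 in dormant libraries. Markers of other cell types moved with the populations: 3 of 12 astrocyte markers were listed and all 3 were higher in dormant cells (summed normalized read counts 580 to 1339 in proliferating and 3984 to 7215 in dormant libraries), as were 7 of 14 mural and fibroblast markers (4574 to 7772 against 48889 to 79365) and 1 of 11 endothelial markers (1.45 to 71.2 against 362 to 1370). Of 15 microglia and macrophage markers 2 were listed, and they went opposite ways. *CD4* was higher in dormant cells (15.2 to 18.3 normalized reads in proliferating and 1039 to 1747 in dormant libraries). *CD74* was lower (49796 to 106366 against 33296 to 44148). None of 10 oligodendrocyte and 11 neuron markers was listed, and the unlisted markers were not analysed here. All these values are of human genes, since the authors discarded reads that mapped to mouse, the host species. Several of these markers, among them *SPARC* and collagens, can also be made by the cancer cells. The mural and fibroblast markers include *BGN* (log2 fold change 8.88), whose protein the paper saw in rare GFP+ cells in the brain. The lower values of the line's markers and the higher values of stromal markers went with the same populations as the differences below, and their part in those was not tested. In bulk libraries such as these, fewer cells of a type and less RNA per cell cannot be told apart.

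Of the 31 genes, 29 were lower in dormant cells and 2, *TOMM40* and *ATP5PBP1*, were higher. Values are normalized read counts, which the authors obtained by dividing each library's counts by its size factor, and log2 fold changes are dormant over proliferating. The 29 lower genes had a narrow range of log2 fold change, from -0.83 for *MRPL17* to -0.40 for *ATP5PO*, with standard errors of 0.0989 to 0.210, which is 24.3% to 43.6% below the proliferating mean (median 31.2%). For all 29, the highest dormant library was below the lowest proliferating one, and the empty space between the groups was 10.6% to 28.1% of the lowest proliferating value; 50.2% of all listed genes were separated in this direction. Both genes that were higher were separated in the other direction, as were 49.0% of listed genes. None of the 29 fell at least 2-fold, against 275 of the 585 listed genes that were lower (23.7% of all listed genes). These listed genes were not matched for read count. Under a mean of 100 normalized reads, where none of the 29 lay, 139 of 170 listed genes were lower. The median log2 fold change of those 170 was -7.08.

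In the quasi-likelihood fit of edgeR, adjusted by Benjamini-Hochberg over the 1161 listed genes, 29 genes passed as lower and 2 as higher, with adjusted p from 0.00355 to 0.0176. This reads against a background in which 99.7% of listed genes passed, 50.0% as lower and 49.6% as higher. Adjusted instead over 20000 genes, an assumed number of genes tested, none of the 31 passed by edgeR (background 0.258%). Their edgeR adjusted p then ran from 0.0612 to 0.303. Before adjustment all 31 had an edgeR p under 0.05, as had 1157 of the 1161 listed genes. Over the same 20000 genes limma passed 0 of the 31 (background 14.9%) and edgeR with the shared pool of mice as a block 0 (background 0.345%). DESeq2 passed all 31 over these 20000 genes (background 100%, every listed gene). The library scaling also set the size of the differences. The median log2 fold change of the 31 genes was -0.54 beside -0.33 for all listed genes, -0.25 beside -0.04 when libraries were scaled to equal totals of listed counts, and -1.13 beside -0.91 with a median ratio over the listed genes. A scaling shifts all genes nearly alike, and no gene of the 31 changed direction under those run. Under equal totals 8 of the 29 passed as lower by edgeR, namely *NDUFS5*, *NDUFA1*, *SDHB*, *ATP5F1A*, *ATP5F1C*, *MRPL17*, *TOMM34* and *TIMMDC1* (background 32.0%), and both higher genes passed.

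**Figure D1:**
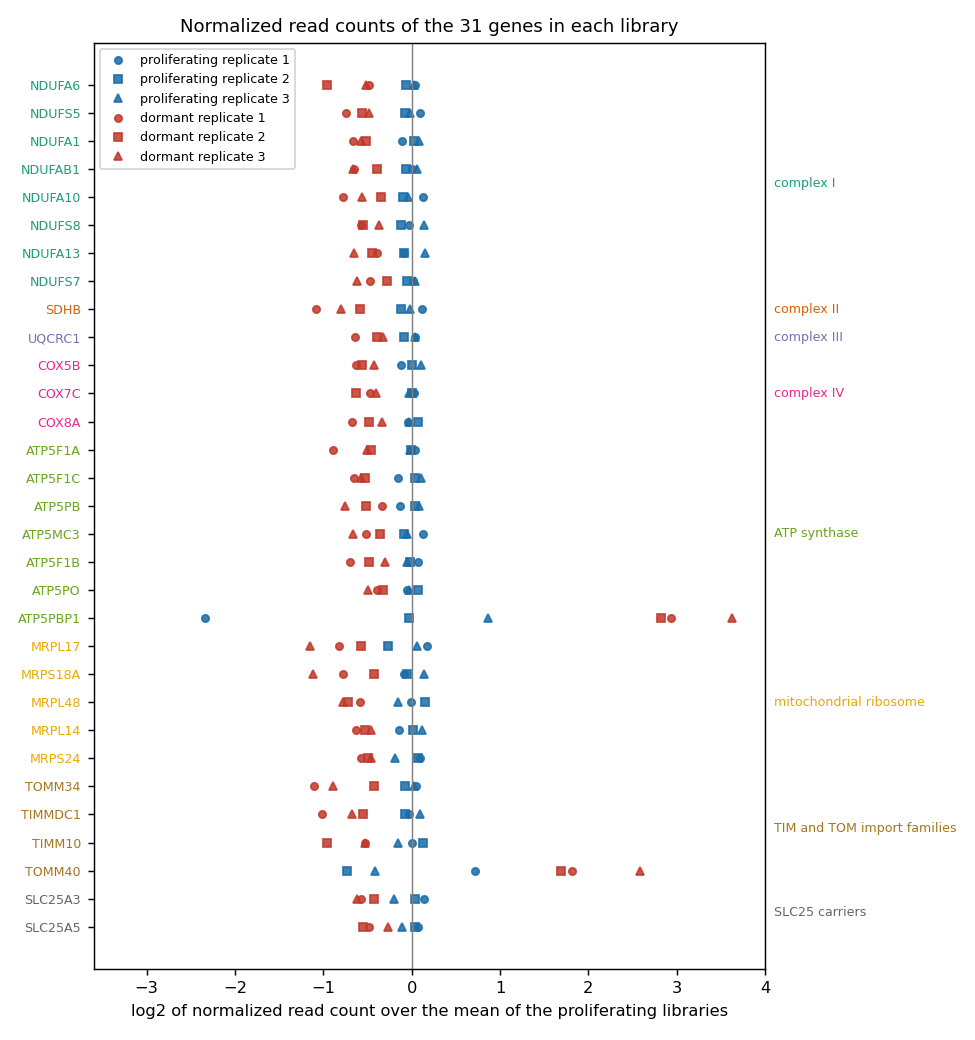
Normalized read count of each of the 31 genes in each library, as log2 of its value over the mean of the 3 proliferating libraries (x axis), with genes in rows grouped by family, proliferating libraries in blue and dormant libraries in red. Dormant points lie left of the proliferating points in 29 rows and right of them for *TOMM40* and *ATP5PBP1*.

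All 8 complex I genes were lower in dormant cells, at a median of -0.56 on the log2 scale (range -0.64 to -0.45). Complex I takes electrons from NADH; *NDUFS7* and *NDUFS8* encode core iron-sulfur subunits, *NDUFA1*, *NDUFA6*, *NDUFA10*, *NDUFA13* and *NDUFS5* accessory subunits, and *NDUFAB1* an acyl carrier protein that also serves mitochondrial fatty acid synthesis. *NDUFA6* (chr22:42085526-42090884, minus strand) had the largest difference, with normalized read counts of 9678, 8988 and 9605 in proliferating replicates 1 to 3 and of 6741, 4833 and 6589 in the dormant replicates. Dormant replicate 2 was the lowest, and the groups did not overlap (log2 fold change -0.64, SE 0.167, edgeR adjusted p = 0.00851). *NDUFS7* (chr19:1383527-1395589, plus strand) had the smallest, with 12115, 11541 and 12312 against 8630, 9866 and 7798 normalized reads. Here too the lowest proliferating library was above the highest dormant one (log2 fold change -0.45, SE 0.132, edgeR adjusted p = 0.0118).

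The accessory subunit genes *NDUFA1* and *NDUFS5* had the second and the third highest level per kilobase of transcript among the 31. *NDUFA1*, on the X chromosome (chrX:119871832-119876662, plus strand), was counted at 23654, 26002 and 27127 in proliferating and 16103, 17845 and 17268 in dormant libraries. Its dormant values were close together and all below the proliferating ones (log2 fold change -0.58, SE 0.102, edgeR adjusted p = 0.00355). *NDUFS5* (chr1:39026318-39034636, plus strand) stood at 30644, 27397 and 28351 against 17212, 19512 and 20624 normalized reads, again without overlap (log2 fold change -0.59, SE 0.108, edgeR adjusted p = 0.00389). Log2 fold changes of the other complex I genes were -0.56 for *NDUFAB1*, -0.55 for *NDUFA10*, -0.50 for *NDUFS8* and -0.49 for *NDUFA13*. Each passed as lower by edgeR over the listed genes (background 50.0%).

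*SDHB* had the largest difference of the respiratory complexes. It encodes the iron-sulfur subunit of succinate dehydrogenase, complex II, which belongs both to the tricarboxylic acid cycle and to the respiratory chain, and lies at chr1:17018664-17054032 on the minus strand. Normalized read counts were 13891, 11784 and 12624 in proliferating replicates 1 to 3, and 6047, 8543 and 7310 in dormant replicates 1 to 3. Dormant replicate 1 was lowest, and the mean was 42.8% lower in dormant cells (12766 ± 1061 against 7300 ± 1248, SD, n = 3 each). The log2 fold change was -0.81 (SE 0.161, edgeR adjusted p = 0.00458).

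*UQCRC1*, a core subunit of complex III, which hands electrons from ubiquinol to cytochrome c, had one of the smaller differences (chr3:48599002-48610976, minus strand). It was at 63046, 57484 and 63054 normalized reads in proliferating and 39094, 46634 and 48932 in dormant libraries. Dormant replicate 1 lay farthest from the proliferating range (log2 fold change -0.45, SE 0.110, edgeR adjusted p = 0.00706).

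The 3 complex IV genes, structural subunits of cytochrome c oxidase that surround the catalytic core encoded in mitochondrial DNA, differed by nearly the same amount, with log2 fold changes of -0.54 for *COX5B*, -0.50 for *COX7C* and -0.49 for *COX8A*. *COX5B* (chr2:97646062-97648383, plus strand) had 15524, 16853 and 18221 normalized reads in proliferating against 10886, 11432 and 12511 in dormant libraries. *COX7C* (chr5:86617928-86620962, plus strand) had 28179, 27871 and 27191 against 20044, 17947 and 21006, and *COX8A* (chr11:63974620-63976543, plus strand) had 15127, 16462 and 15253 against 9770 (replicate 1), 11219 and 12366. No dormant library reached the proliferating range for any of these genes, and the edgeR adjusted p was 0.0055, 0.00456 and 0.00795, with standard errors of 0.117, 0.0989 and 0.125 in the same order.

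ATP synthase had the most reads of the families, and its 6 coding genes were all lower in dormant cells. *ATP5F1A*, *ATP5F1B* and *ATP5F1C* encode the alpha, beta and gamma subunits of the catalytic F1 head, with beta carrying the catalytic sites and gamma the turning shaft, *ATP5MC3* encodes the c subunit of the membrane ring, and *ATP5PB* and *ATP5PO* encode parts of the peripheral stalk. Their log2 fold changes were -0.60, -0.49, -0.59, -0.51, -0.53 and -0.40 in that order. *ATP5F1B* (chr12:56638175-56645984, minus strand) had the highest level per kilobase of the 31 genes, 103320 normalized reads per kilobase on average in proliferating and 73811 in dormant cells. By library it was counted at 190635, 179572 and 175011 in proliferating and 111673, 130321 and 147506 in dormant cells. The 3 dormant values were spread over a wider range than the proliferating ones but did not enter it (log2 fold change -0.49, SE 0.115, edgeR adjusted p = 0.00668).

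*ATP5PO* (chr21:33903453-33915814, minus strand) had the smallest difference of the 29 lower genes. Its normalized read counts were 8896, 9709 and 9026 in proliferating and 7010.5, 7338 and 6557 in dormant libraries, which did not overlap (log2 fold change -0.40, SE 0.128, edgeR adjusted p = 0.0158). With the shared pool of mice as a block, 29 of the 31 genes passed by edgeR (background 94.5%), and the call of *ATP5PO* was lost (edgeR adjusted p = 0.0565). It was also lost without proliferating replicate 2 (edgeR adjusted p = 0.0577). Its exons overlap other annotated genes, among them a listed readthrough gene (ENSG00000249209), over 21.6% of their bases. Those of *NDUFA13* overlap other annotated genes, among them the listed ENSG00000258674, over 21.0%. With listed and unlisted genes counted, exons of 13 of the 30 coding genes overlap another annotated gene. The largest shares were 51.4% for *NDUFS7*, 50.9% for *MRPS18A*, 35.4% for *COX8A* and 29.4% for *TIMMDC1*. How reads in overlaps were assigned was not tested, and the values of such genes are uncertain.

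The pseudogene *ATP5PBP1* (ENSG00000224451.2) went the other way. A processed pseudogene is a copy made from a reverse-transcribed mRNA, and this one lies at chr13:51598416-51599460 on the plus strand, inside *WDFY2*. Raw counts were 4, 17 and 43 in proliferating and 158, 144 and 176 in dormant libraries, all whole numbers. Normalized read counts were 2.90, 18.3 and 34.9 against 150.2, 138 and 243, so that the lowest dormant library was well above the highest proliferating one. The mean was 18.7 ± 16.0 in proliferating and 177 ± 57.4 in dormant cells (SD, n = 3 each; log2 fold change 3.24, SE 0.944, edgeR adjusted p = 0.0118). Leaving out single libraries moved the log2 fold change between 2.72 and 4.07.

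Over 309 aligned bases the transcripts of *ATP5PBP1* and *ATP5PB* were identical at 252 (81.6%). A stretch of 91 bases, with 15 differences in capitals, is given to show how many positions can tell the copies apart; it runs from base 274 to 364 of the *ATP5PB* transcript and from 192 to 282 of *ATP5PBP1* (GENCODE release 44).
ATP5PB: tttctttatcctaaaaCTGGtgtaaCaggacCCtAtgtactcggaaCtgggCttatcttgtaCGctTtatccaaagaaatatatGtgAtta
ATP5PBP1: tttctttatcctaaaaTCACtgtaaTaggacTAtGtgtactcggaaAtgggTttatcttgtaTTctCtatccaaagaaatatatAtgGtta
Within a library, *ATP5PBP1* had 0.0117%, 0.0656% and 0.121% of the normalized reads of its parent in proliferating cells and 0.697%, 0.728% and 1.51% in dormant cells. *ATP5PB* itself was lower in dormant cells, by 30.6%.

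The 5 genes of the mitochondrial ribosome were all lower in dormant cells, the median log2 fold change being -0.70, with a summed normalized read count of 46314 ± 692 in proliferating and 29491 ± 1836 in dormant cells (SD, n = 3 each). *MRPL14*, *MRPL17* and *MRPL48* encode proteins of the large subunit, and *MRPS18A* and *MRPS24* carry small subunit names. *MRPL17* (chr11:6680385-6683340, minus strand) had the largest difference of the 29, with 10886, 7991 and 10056 normalized reads in proliferating and 5471, 6499 and 4351 in dormant libraries. Proliferating replicate 2 stood below the other proliferating libraries and still above every dormant one (log2 fold change -0.83, SE 0.199, edgeR adjusted p = 0.00689).

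*MRPS24* (chr7:43866558-43869893, minus strand) had the smallest difference of the ribosomal genes, with 5645, 5531 and 4647 against 3551, 3750 (replicate 2) and 3821 normalized reads. The dormant libraries were close together and below all proliferating ones (log2 fold change -0.51, SE 0.166, edgeR adjusted p = 0.0176). This call was lost by edgeR with the pool of mice as a block (adjusted p = 0.0606) and without proliferating replicate 1, proliferating replicate 2 or dormant replicate 1 (edgeR adjusted p = 0.0628, 0.0591 and 0.0535). The gene shares exons with the listed readthrough *URGCP-MRPS24*, whose log2 fold change was -0.52 (SE 0.167, edgeR adjusted p = 0.0172); how reads of the shared bases were assigned was not tested. Log2 fold changes of the others were -0.75 for *MRPS18A*, -0.70 for *MRPL48* and -0.54 for *MRPL14*.

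Of the 4 genes with import names, 3 were lower and *TOMM40*, which encodes the channel of the outer membrane translocase, was higher in dormant cells. *TOMM40* (ENSG00000130204.12, chr19:44890569-44903689, plus strand) was counted at 2745, 999.5 and 1245 normalized reads in proliferating and 5856, 5384 and 9990.0 in dormant libraries. The proliferating value of replicate 1 was above the other proliferating values but below the lowest dormant value. The mean was 4.25-fold higher in dormant cells (1663 ± 945 against 7077 ± 2534, SD, n = 3 each; log2 fold change 2.09, SE 0.438, edgeR adjusted p = 0.00508), and leaving out single libraries moved the log2 fold change between 1.76 and 2.66. Per kilobase of transcript, its mean was 941 normalized reads in proliferating and 4003 in dormant cells, and its proliferating level ranked 30 of the 31.

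*TOMM40* is the neighbour of *APOE*, an apolipoprotein gene on the same strand that is used as an astrocyte marker and starts 2102 bases after its end. *APOE* had normalized read counts of 2.90, 0 and 0 in proliferating and 466, 774 and 254 in dormant libraries, so it was at or near 0 in the first and counted in all of the second group. Its raw counts were 4, 0 and 0 against 490.5, 805.5 and 184.5. *APOC1*, 10558 bases from *TOMM40*, also lay in the table, at 161, 110.0 and 143 against 867, 426 and 482 normalized reads (log2 fold change 2.10, SE 0.542, edgeR adjusted p = 0.00819). The clone-named gene ENSG00000280087, 5686 bases away, had a log2 fold change of 2.16 (SE 0.583, edgeR adjusted p = 0.00938). Whether these neighbours and *TOMM40* come from the same cells was not tested.

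*TOMM34* (chr20:44942130-44960397, minus strand), the cytosolic co-chaperone, was at 25626, 23626 and 25208 in proliferating and 11516, 18428 and 13347 normalized reads in dormant libraries. Dormant replicate 2 lay above the other dormant libraries, and no dormant library reached the proliferating range (log2 fold change -0.78, SE 0.176, edgeR adjusted p = 0.00591). After *TOMM40* and *ATP5PBP1* it had the widest spread between dormant libraries, an SD of 0.347 on the log2 scale. *TIMM10*, a small chaperone that escorts hydrophobic proteins through the space between the membranes (chr11:57528464-57530803, minus strand), had 5238, 5717 and 4696 against 3607, 2685 and 3614 normalized reads. Dormant replicate 2 was its lowest library (log2 fold change -0.66, SE 0.195, edgeR adjusted p = 0.0124). *TIMMDC1* had a log2 fold change of -0.73.

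Both carriers were lower in dormant cells. *SLC25A3*, which imports the phosphate used by ATP synthase (chr12:98593591-98606379, plus strand), had normalized read counts of 62487, 58303 and 49494 in proliferating and 38059, 42316 and 36975 in dormant libraries. *SLC25A5*, an ADP/ATP exchanger on the X chromosome (chrX:119468422-119471396, plus strand), had 62498, 60898 and 55092 against 42487, 40778 and 49259. In *SLC25A5* dormant replicate 3 came closest to the proliferating libraries, and this gene had the narrowest gap between the groups of the 29. The log2 fold changes were -0.54 for *SLC25A3* (SE 0.115, edgeR adjusted p = 0.00538) and -0.43 for *SLC25A5* (SE 0.106, edgeR adjusted p = 0.00715).

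**Figure D2:**
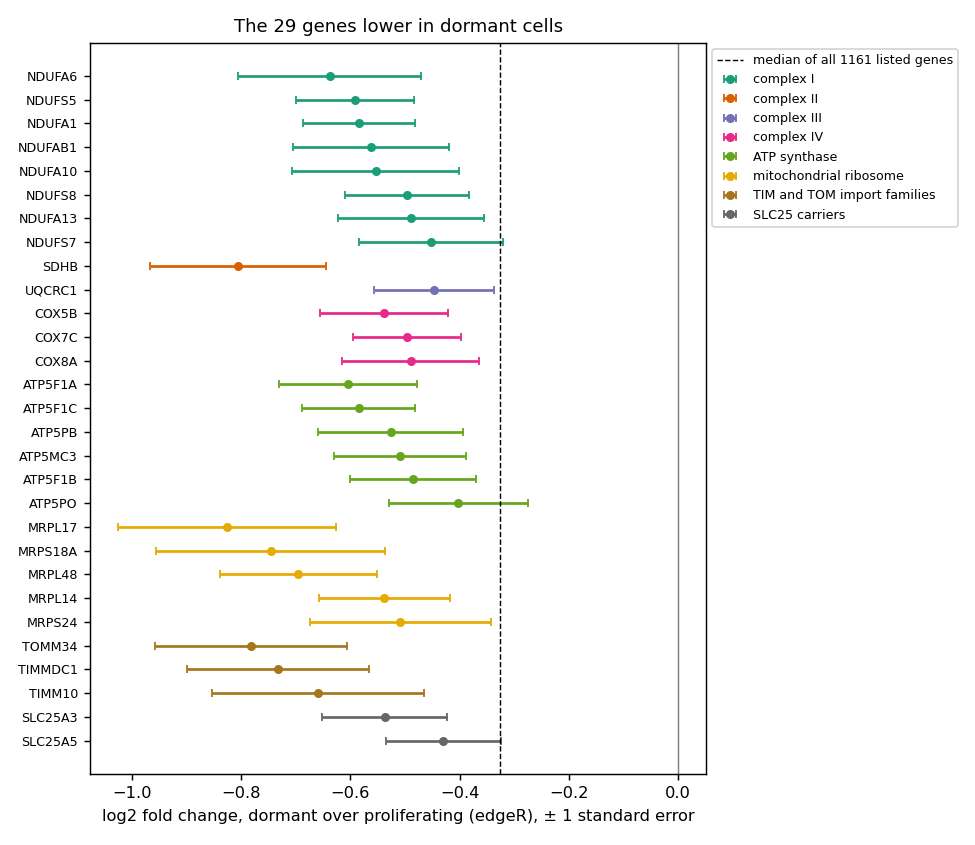
Log2 fold change, dormant over proliferating, of the 29 genes that were lower in dormant cells (edgeR, point with ± 1 standard error), coloured by family, with the median of all 1161 listed genes as a dashed line at -0.33. Values run from -0.83 for *MRPL17* to -0.40 for *ATP5PO*, and the bars of most genes overlap those of other families.

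Differences between families were not tested. Median log2 fold changes were -0.56 for complex I, -0.81 and -0.45 for the single genes of complexes II and III, -0.50 for complex IV, -0.51 for ATP synthase with its pseudogene, -0.70 for the mitochondrial ribosome, -0.70 for the import names and -0.48 for the carriers. The ratio of *MRPL17* to *ATP5PO*, the lower genes with the largest and the smallest difference, was 1.22, 0.823 and 1.11 in proliferating and 0.780, 0.886 and 0.664 in dormant libraries, so the groups overlapped for this pair.

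The dormant libraries were not equally low. Among the 29 lower genes the lowest dormant library was replicate 1 for 15, replicate 2 for 4 and replicate 3 for 10 genes. The median log2 ratio of the 31 genes to their proliferating mean was -0.63 in dormant replicate 1, -0.49 in replicate 2 and -0.52 in replicate 3. Compared with the proliferating library from the same pool of mice, all 29 were lower in all 3 pools, as were 50.3% of listed genes.

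Most of these genes gave many reads. The median over the 31 genes of the mean normalized read count was 12958, against 2251 over all listed genes, although their transcripts were shorter, with a median of 1072 against 2482 bases. Direction in the table differed between classes of read count. Among listed genes with a mean of 16000 or more, all 13 of these mitochondrial genes and 116 of 129 other genes (89.9%) were lower in dormant cells, the others at a median of -0.57 on the log2 scale. Between 4000 and 16000 reads, 16 of 17 and 147 of 267 others (55.1%) were lower, and *TOMM40* was the exception. Below these, the share of all listed genes that were lower was 22.4% from 1000 to 4000 reads, 33.3% from 100 to 1000 and 81.8% under 100, so it did not follow read count throughout. *ATP5PBP1* was the only one of the 31 in those classes.

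**Figure D3:**
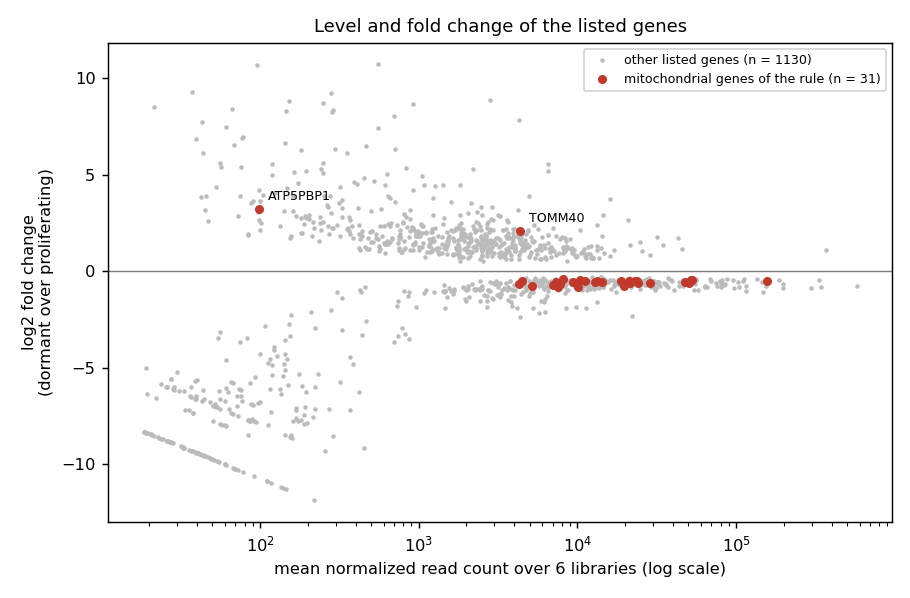
Log2 fold change (edgeR, y axis) against the mean normalized read count over the 6 libraries (x axis, log scale) for the 31 mitochondrial genes in red and the other 1130 listed genes in grey. The 29 lower genes sit in a flat band between -0.83 and -0.40 at high read counts, with *TOMM40* and *ATP5PBP1* above 0; fold changes of genes without reads in 1 population depend on the prior count of the fit.

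Ratios within a library do not depend on how libraries are scaled. The 19 coding genes of complexes I to IV and ATP synthase together had 39.4%, 43.7% and 34.9% of the normalized reads of 8 listed glycolytic genes in proliferating libraries, and 48.3%, 47.9% and 51.4% in dormant libraries. The groups did not overlap (39.3% ± 4.43 against 49.2% ± 1.91, SD, n = 3 each). Both sums hold called genes only, and 8 of 19 glycolytic genes were listed, so the ratio does not describe the whole pathways. All 9 table entries of the glycolytic genes (*ALDOA* has 2, of which 1 entered the sum) were lower in dormant cells, at a median of -0.83 on the log2 scale. Over 8 listed genes of cytosolic ribosomal proteins the same 19 genes stood at 121%, 124% and 132% in proliferating against 116%, 122% and 130% in dormant libraries, and the groups overlapped. Over all listed genes their share was 4.73% ± 0.0737 in proliferating and 4.02% ± 0.198 in dormant libraries. With 3 libraries against 3, an exact two-sided permutation test cannot give a p under 0.1, and none is given.

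**Figure D4:**
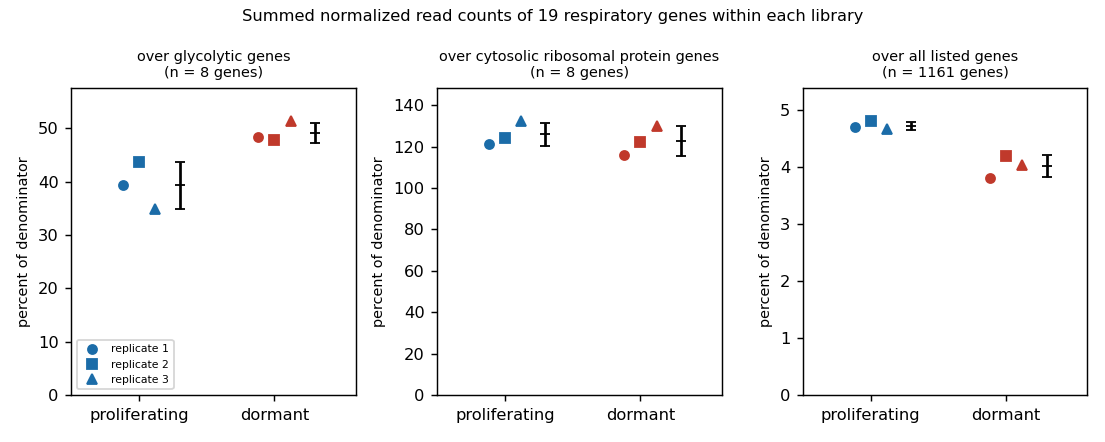
Summed normalized read count of the 19 respiratory genes as a percent (y axis) of glycolytic genes, of cytosolic ribosomal protein genes and of all listed genes in each library, with bars for the mean ± SD of 3 libraries. Dormant libraries lie above the proliferating ones in the left panel (47.9% to 51.4% against 34.9% to 43.7%), mixed with them in the middle and below them on the right.

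Other genes of the same pathways were described from lists of their members. Of complex III, the cytochrome c1 gene *CYC1* was also listed and lower (log2 fold change -0.58, SE 0.124, edgeR adjusted p = 0.00541). Of 15 genes in mitochondrial DNA, *MT-ATP6*, an ATP synthase subunit, was listed, with 158479, 156907 and 142601 normalized reads in proliferating and 112848, 122326 and 117471 in dormant libraries (log2 fold change -0.38, SE 0.085, edgeR adjusted p = 0.00591). Of 19 genes of the tricarboxylic acid cycle and pyruvate dehydrogenase, 4 were listed. All 4 passed as lower (background 50.0% of listed genes): *PDHA1* at -0.48, *IDH3G* at -0.56, *SUCLG1* at -0.62 and *SUCLG2* at -1.06 on the log2 scale. The matrix chaperonin partner *HSPE1* and the matrix protease *CLPP* had log2 fold changes of -0.54 and -0.67, and *VDAC2*, a porin of the outer membrane, -0.51.

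Assembly factors and regulators did not share one direction. Of the electron carriers and assembly factors in the table besides *TIMMDC1*, *ETFB*, part of the flavoprotein that passes on electrons from fatty acid oxidation, was lower (-0.96), while *SURF1*, an assembly factor of complex IV, and *NUBPL*, an iron-sulfur assembly factor of complex I, were higher (1.10 and 1.04). Of 20 genes of mitochondrial DNA upkeep and biogenesis 4 were listed. *PPRC1*, a coactivator of the PGC-1 family, was counted at 2693, 1458 and 1391 normalized reads in proliferating and 5195, 4323 and 10011 in dormant libraries, without overlap (log2 fold change 1.82, SE 0.404, edgeR adjusted p = 0.00582). *POLRMT*, the mitochondrial RNA polymerase, and *YY1*, a zinc finger factor, were higher, at 1.50 and 1.14 on the log2 scale, and *TFB2M*, a mitochondrial transcription initiation factor, was lower at -0.66 (edgeR adjusted p = 0.0199). As adjusted over 20000 genes, none of these genes passed by edgeR (background 0.258% of listed genes).

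The 31 genes were a part of their families. Of 265 coding genes with such names in the annotation, assembly factors included, 30 were in the table (11.3%), against 4.75% of all coding genes. These 2 shares were not matched for read count, whose median was 12958 over the 31 genes and 2251 over all listed genes. The share ran from 4.08% of the carriers and 6.41% of the mitochondrial ribosome to 16.7% of complex I and 30.0% of ATP synthase; the other family members were not analysed here. Read counting bears on these genes because 15 of the 30 coding genes have a pseudogene named after them, and multi-mapping reads had been counted. In 6 genes, among them *SDHB*, *UQCRC1*, *TOMM34* and *TIMM10*, every count was a whole number, so these values hold no visible fraction of a shared read.

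The window around each gene start was read from RefSeq (GRCh38.p14), from 250 bases before to 50 bases after the start, for 27 of the 31 genes in 30 windows; *ATP5F1B*, *ATP5MC3*, *NDUFS5* and *ATP5PBP1* had none. The search was for short letter strings on both strands: TGCGCA for NRF1 and CCGGAAG for GABPA, both known as regulators of respiratory genes, AAGATGG for YY1, GGGCGG for SP1, CCAAT for NFY, CACGTG for the MYC E-box and AAGGTCA for ESRRA. NRF1 letters were in 8 of the 30 windows (26.7%), against 10.2% of the windows of all listed coding genes and 9.91% of those of all coding genes. GABPA letters were in 36.7%, against 15.7% and 12.9%, and YY1 letters in 33.3%, against 6.59% and 6.04%. Only 1 of the 10 windows with YY1 letters had them before the start, so the rest had them in the first 50 transcribed bases or across the start. SP1 letters were in 83.3%, against 64.7% and 56.8%; NFY letters were less frequent, in 23.3% against 33.6% and 34.9%. The E-box was in 13.3% against 7.53% and 8.35%, and ESRRA letters in 13.3% against 2.54% and 3.21%. A match describes letters and not a bound site.

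**Figure D5:**
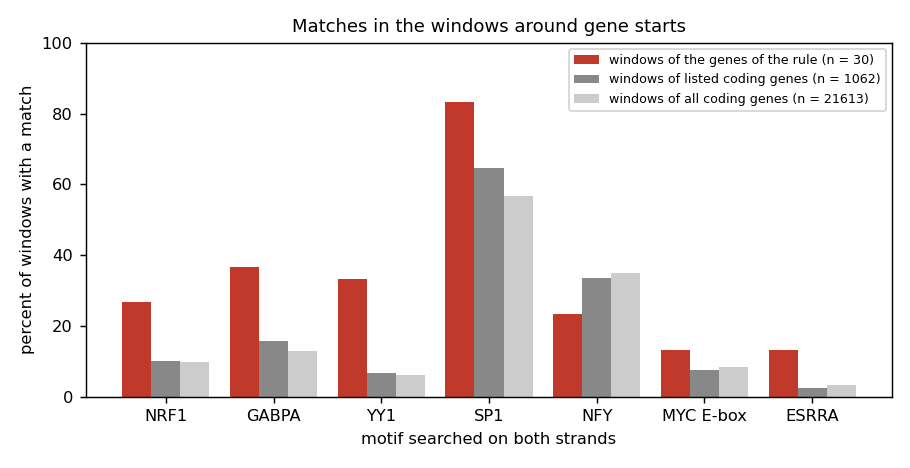
Percent of start windows (y axis) that hold each motif (x axis) for the 30 windows of the mitochondrial genes in red, the 1062 windows of listed coding genes in dark grey and the 21613 windows of all coding genes in light grey. The red bars stand above both grey bars for every motif but NFY.

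The 250 bases before the start are given for *SDHB* and *MRPL17*, the respiratory and the ribosomal gene with the largest differences. They are also given for *COX5B*, whose window, like that of *SDHB*, holds NRF1, GABPA and SP1 letters. Capitals mark the motifs searched. Their positions are chr1:17054033-17054282 (minus strand), chr11:6683341-6683590 (minus strand) and chr2:97645812-97646061 (plus strand), and none of these bases is exonic in the annotation.
SDHB: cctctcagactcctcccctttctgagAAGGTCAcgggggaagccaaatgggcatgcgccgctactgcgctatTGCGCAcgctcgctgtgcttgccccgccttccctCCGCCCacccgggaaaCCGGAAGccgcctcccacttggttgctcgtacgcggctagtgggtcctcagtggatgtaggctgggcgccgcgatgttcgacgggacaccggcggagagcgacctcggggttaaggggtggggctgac
MRPL17: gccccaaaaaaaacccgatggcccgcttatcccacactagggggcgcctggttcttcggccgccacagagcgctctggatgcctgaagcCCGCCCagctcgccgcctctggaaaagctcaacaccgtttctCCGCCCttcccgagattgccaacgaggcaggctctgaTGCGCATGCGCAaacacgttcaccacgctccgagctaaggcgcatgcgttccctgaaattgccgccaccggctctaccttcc
COX5B: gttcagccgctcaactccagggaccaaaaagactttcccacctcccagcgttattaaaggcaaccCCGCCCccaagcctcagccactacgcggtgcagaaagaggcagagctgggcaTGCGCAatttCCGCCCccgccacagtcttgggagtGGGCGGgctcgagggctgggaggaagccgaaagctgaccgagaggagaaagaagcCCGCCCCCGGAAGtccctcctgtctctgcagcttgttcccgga
The *SDHB* sequence holds 1 match each for NRF1, GABPA, SP1 and ESRRA, that of *MRPL17* 2 adjoining matches for NRF1 and 2 for SP1, and that of *COX5B* 4 for SP1 and 1 each for NRF1 and GABPA.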

How the data were processed

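Human cells were sorted from pooled mouse brains, and Smart-seq2 libraries were sequenced. The authors used Cutadapt for trimming and STAR 2.7 for alignment to joined human (GRCh38.p12, GENCODE 31) and mouse (GRCm38.p6) genomes, and counted genes by Rsubread, keeping multi-mapping but not mouse reads. The deposited table gives estimated counts, partly fractional, and a normalized signal, the integer count divided by 1 DESeq2 size factor per library; its columns of the authors' own comparison (mean, fold change, error, test and p-values) were not used. Library depth is not given in the sources used here.

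Counts were rounded and tested with edgeR 4.0.16 (quasi-likelihood, two-sided, authors' size factors, no block, no filter on low values), with Benjamini-Hochberg adjustment over all 1161 genes; a gene was called at an adjusted p under 0.05. All 31 genes entered the fit. The code was tested on simulated data. Alternatives used DESeq2 1.42.0, limma 3.58.1 (pseudocounts 1 and 10) and other scalings, filters and adjustments, as given in the closing section. Without a block, p-values of the main fit rest on the spread between the 3 libraries of each population, each from its own pool of mice. They do not use the pairing of the populations by pool. Same-numbered libraries came from the same pool, as the study's methods and labels state, which pairs them; their deviations from the group means correlated at 0.0567, -0.0183 and 0.0012 over the listed genes. Positions, transcript lengths and overlaps came from GENCODE 44 on GRCh38; 1157 of 1161 identifiers matched.

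The genes and lists were chosen with earlier results of these data known. Values in every library are given for genes that were higher, for the largest and smallest difference in each family, for the 5 highest levels per kilobase and for the 3 widest spreads between dormant libraries.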

Additional observations from a re-analysis of the deposited data

How the results depend on the processing

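All 31 genes kept their direction in the 14 alternatives with a fit of their own (434 values); changing only the adjustment cannot alter a direction. The calls depended on the adjustment: over 20000 genes 0 passed as lower and 0 as higher by edgeR. Likewise 0 and 0 passed by limma, and 0 and 0 by edgeR with the replicate block. DESeq2 passed all 31, as it did every listed gene (limma passed 173 of 1161). The limma, replicate block and DESeq2 versions over 20000 genes were all chosen after seeing the data. With the replicate block over the listed genes 27 passed as lower and 2 as higher (background 94.5% of listed genes). *ATP5PO* (edgeR adjusted p = 0.0565) and *MRPS24* (0.0606) were lost, and the block changed no other call of the 31. Equal totals left 8 genes called lower and moved the median log2 fold change to -0.25, and a median ratio over the listed genes moved it to -1.13. These scalings moved the share of calls that were higher, over the listed genes, from 49.78% to 60.76% (576 higher, 372 lower) and 37.16% (346 higher, 585 lower). Leaving out 1 library gave 27 to 29 calls lower, 2 higher and medians from -0.573 to -0.511. TMM scaling, DESeq2, limma with either pseudocount and a filter on low counts kept all 31 calls over the listed genes. With TMM, 574 of the 1161 listed genes passed as higher and 581 as lower. In the main fit 99.7% of listed genes passed, so kept calls do not single out these 31. The share of listed genes that passed without 1 library is not given here. The cause of the shifts between settings was not tested, beyond the larger number of genes in the adjustment. The table holds called genes only, so how far their families moved as a whole cannot be read from it.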
